A study of Mus musculus with 4 samples.

Results

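Angpt1, Nrp1, Adgrl4, Egfl7, Emcn and Cd93 are 6 genes for secreted or surface proteins that are known both from blood vessels and from blood stem and progenitor cells. They are described here on 4 arrays of mouse haematopoietic cells, among 19938 genes with a probe set of a single gene name, and each of the 6 had 1 such probe set. They were chosen by name with earlier results of these arrays known, so their levels and differences are given as a description and carry no test. All cells came from C57BL/6 bone marrow, and all started as lymphoid-primed multipotent progenitors (LMPPs), a fraction lacking lineage markers that carries Sca1 and Kit and is high for Flt3. Tcf1 cells (2 arrays, labelled as biological replicates) came from LMPPs given a Tcf1-VEX retrovirus and grown to day 10 on OP9, a bone marrow stromal line. Control cells (1 array) came from LMPPs given the empty VEX retrovirus and grown to day 10 on OP9-DL4, the same stroma made to express the Notch ligand DL4. Both cultures received IL7 and Flt3 ligand and were sorted as living CD45.2+ cells with Thy1 and CD25 and without the myeloid markers Mac1 and Gr1. The LMPP array holds pooled cells kept for 48 hours in the stimulation medium of the transduction. Tcf1 cells and control cells thus differed in vector and in stroma, and both differed from LMPPs in time, stroma and sort gate, so the effects of these cannot be told apart.

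Angiopoietin 1, the product of Angpt1, is a secreted ligand that activates the receptor tyrosine kinase Tek on endothelial cells and on blood stem cells, and it is made by stromal cells, megakaryocytes and stem and progenitor cells. Nrp1 encodes neuropilin 1, a co-receptor that binds VEGF with the receptor Kdr and class 3 semaphorins with plexins, and that is also found on some T cells and dendritic cells. Adgrl4 encodes an adhesion G protein-coupled receptor of endothelial cells. Egfl7 encodes a secreted protein with EGF-like domains and carries the microRNA gene Mir126a inside it, a microRNA known from endothelium and from blood stem cells. Emcn encodes endomucin, a sialomucin of venous endothelium that also marks stem cells. Cd93 encodes a membrane protein with a C-type lectin domain that was first used as a marker of early B cell and stem cell fractions.

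The sequence that Egfl7 carries is shown because its precursor has a probe set of its own, whose low signal is given with that of Egfl7 below. It lies at chr2:26591402-26591423 on the plus strand of GRCm38.p6 in RefSeq, inside the span of Egfl7, and its seed (bases 2 to 8) is in capitals.
mmu-miR-126a-3p: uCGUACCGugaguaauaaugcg

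Promoter windows of RefSeq (GRCm38.p6, 250 bases before to 50 after a start site) were found for 4 of the 6 genes, with 6 windows in all, and Angpt1 and Cd93 are named without one. They are shown because Adgrl4, Egfl7 and Emcn shared one order of the groups and Nrp1 had another. Capitals mark matches on either strand. An ETS factor core was searched as AGGAAG. An E-box, bound by basic helix-loop-helix factors, was searched as CAGCTG. The core of TCF and LEF factors, the family of Tcf1, was searched as CTTTGA. The letters AGATAA, a spelling of the site bound by GATA factors, had no match in any of the windows and occurred in 11.2% of all promoter windows. The letters TGTGGT, a spelling of the site bound by RUNX factors, had no match either and occurred in 16.8%. Other spellings of these sites were not searched, so sites of GATA or RUNX factors are not shown to be absent. All windows are on the plus strand. The Nrp1 window lies at chr8:128358823-128359122, that of Adgrl4 at chr3:151437632-151437931 and that of Emcn at chr3:137340828-137341127. The first and second windows of Egfl7 lie at chr2:26580833-26581132 and chr2:26583615-26583914.
Nrp1: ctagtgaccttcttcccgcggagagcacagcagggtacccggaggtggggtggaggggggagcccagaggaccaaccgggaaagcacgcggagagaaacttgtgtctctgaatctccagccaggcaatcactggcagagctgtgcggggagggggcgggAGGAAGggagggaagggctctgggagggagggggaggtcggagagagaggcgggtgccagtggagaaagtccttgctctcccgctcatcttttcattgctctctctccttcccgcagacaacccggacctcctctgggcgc
Adgrl4: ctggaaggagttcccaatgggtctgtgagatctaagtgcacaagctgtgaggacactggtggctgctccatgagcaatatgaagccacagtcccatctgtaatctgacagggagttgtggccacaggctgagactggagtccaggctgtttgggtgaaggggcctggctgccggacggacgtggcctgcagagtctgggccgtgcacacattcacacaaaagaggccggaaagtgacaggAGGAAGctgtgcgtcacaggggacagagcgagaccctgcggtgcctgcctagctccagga
Egfl7, first start: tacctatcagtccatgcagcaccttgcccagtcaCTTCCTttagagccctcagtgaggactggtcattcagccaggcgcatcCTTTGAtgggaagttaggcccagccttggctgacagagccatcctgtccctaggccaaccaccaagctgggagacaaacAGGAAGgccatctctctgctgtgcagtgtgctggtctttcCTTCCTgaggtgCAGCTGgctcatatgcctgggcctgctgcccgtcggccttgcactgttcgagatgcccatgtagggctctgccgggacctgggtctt
Egfl7, second start: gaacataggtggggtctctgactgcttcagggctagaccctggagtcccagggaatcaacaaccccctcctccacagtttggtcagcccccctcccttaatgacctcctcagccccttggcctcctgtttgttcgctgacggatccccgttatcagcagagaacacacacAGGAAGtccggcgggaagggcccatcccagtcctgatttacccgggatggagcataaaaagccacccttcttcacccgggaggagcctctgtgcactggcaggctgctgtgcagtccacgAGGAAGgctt
Emcn: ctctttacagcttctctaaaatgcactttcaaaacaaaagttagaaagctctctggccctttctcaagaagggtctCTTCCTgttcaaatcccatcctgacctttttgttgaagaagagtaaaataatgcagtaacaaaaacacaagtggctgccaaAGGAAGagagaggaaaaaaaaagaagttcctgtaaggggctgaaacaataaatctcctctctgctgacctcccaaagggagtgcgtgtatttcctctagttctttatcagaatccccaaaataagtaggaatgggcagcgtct

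The ETS letters AGGAAG occurred in 5 of the 6 windows and in all 4 genes that had a window, against 35.4% of 32851 promoter windows of the same length. The exception was the third start of Egfl7, which held none of the 5 strings of letters searched. CTTTGA occurred in the first Egfl7 window only, at position -168 from the start, against 16% of all windows, and CAGCTG also occurred there only, against 16.3%. Nrp1 and Adgrl4, with different orders of the groups, each held AGGAAG and no other searched motif. Only 1 window, that of Nrp1, stood for its order, so nothing is read from the letters about the patterns. The motifs do not overlap one another in these windows, and a match is a description of letters, not a bound site.

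The arrays gave log2 signal per probe set, with medians of 7.26 to 7.29 over all 35399 probe sets. The difference between the Tcf1 arrays had an SD over genes of 0.24 (log2). The 2 positive markers of the sort read high in the sorted cells, while other T lineage genes, given at the end, differed between them. Thy1 signal was 12.38 and 12.53 in Tcf1 cells and 12.98 in control cells, against 8.13 in LMPPs. Il2ra (CD25) signal was 12.91 and 12.99 in Tcf1 cells and 13.64 in control cells, against 6.88 in LMPPs. Flt3 signal was 10.97 and 11.03 in Tcf1 cells and 6.75 in control cells, against 11.91 in LMPPs. Kit, also a marker of the LMPP gate, went the other way and read lowest in LMPPs. Its signal was 11.17 and 11.27 in Tcf1 cells and 11.39 in control cells, against 9.68 in LMPPs. Cd34 signal was 12.76 and 12.86 in Tcf1 cells and 8.91 in control cells, against 12.67 in LMPPs. No probe set named Tcf7 alone, the gene of Tcf1, so the transduced gene is not analysed here.

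The 6 genes fell into 3 orders of the groups, which are plotted by array. Angpt1 and Nrp1 read low in Tcf1 cells and nearly alike in control cells and LMPPs. Adgrl4, Egfl7 and Emcn read high in LMPPs and low in both kinds of day 10 cells. Cd93 read lowest in Tcf1 cells, with control cells and LMPPs above them and close to each other.

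**Figure D1:**
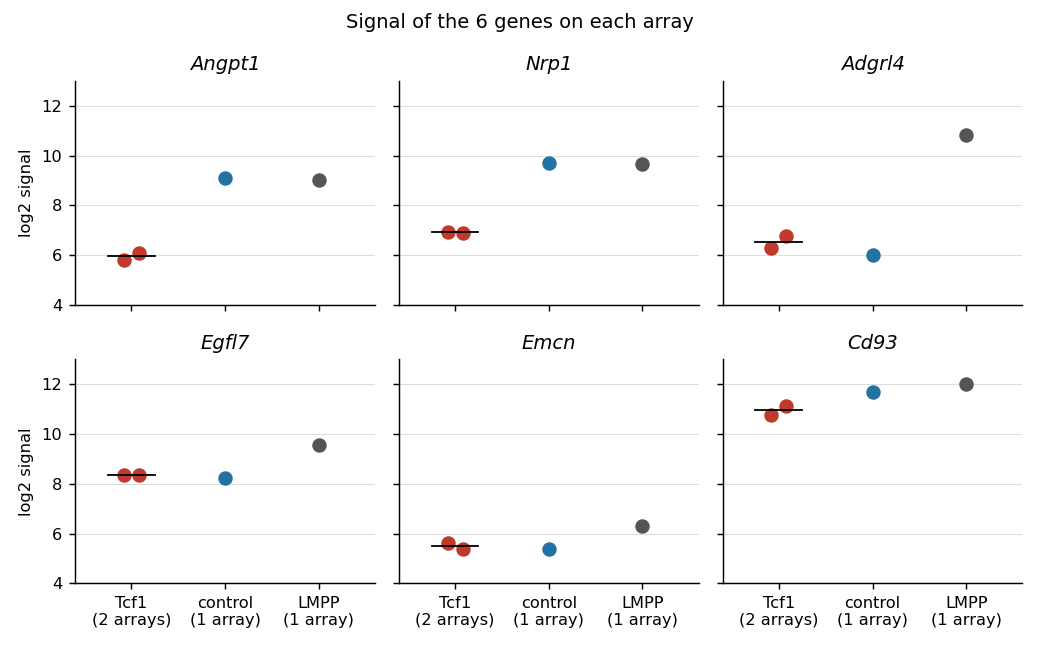
Log2 signal (vertical axis) of the 6 genes in Tcf1 cells, control cells and LMPPs, with a point for each array and a line at the mean of the 2 Tcf1 arrays. Angpt1 and Nrp1 are low only in Tcf1 cells (5.82 and 6.10 for Angpt1), while Adgrl4 is high only in the LMPP array (10.82).

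Angpt1, the secreted ligand, had a log2 signal of 5.82 and 6.10 in the 2 Tcf1 arrays, 9.11 in control cells and 9.03 in LMPPs. Both Tcf1 arrays lay far below both other arrays, and the gap of 0.28 between the Tcf1 replicates was small beside it. The Tcf1 mean of 5.96 ± 0.20 (SD, n = 2) was 8.39-fold below LMPPs (log2 difference -3.07, SE 0.19) and 8.90-fold below control cells (-3.15, SE 0.19). These standard errors come from a limma fit over all genes and take the single arrays to vary as the Tcf1 pair did. Control cells and LMPPs differed by 0.09, less than the gap between the Tcf1 replicates. In bulk samples such as these, fewer cells with the transcript and less of it per cell cannot be told apart. Angpt1 ranked 6th of 19938 genes from the lowest difference between Tcf1 cells and LMPPs and 10th between Tcf1 cells and control cells. On the Tcf1 arrays it read at the 18.0 and 23.4 percentiles of all genes. Whether any transcript was left there was not tested.

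Nrp1, the co-receptor, had a log2 signal of 6.95 and 6.88 in Tcf1 cells, 9.70 in control cells and 9.66 in LMPPs. The Tcf1 arrays were 0.07 apart and both lay below the other arrays, which were 0.03 apart. The Tcf1 mean of 6.92 ± 0.05 (SD, n = 2) was 6.71-fold below LMPPs (-2.75, SE 0.16) and 6.86-fold below control cells (-2.78, SE 0.16). Nrp1 ranked 10th from the lowest difference against LMPPs and 25th against control cells.

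Adgrl4, the adhesion receptor, had a log2 signal of 6.30 and 6.77 in Tcf1 cells, 6.03 in control cells and 10.82 in LMPPs. The LMPP array stood far above the other 3. The Tcf1 mean of 6.54 ± 0.33 (SD, n = 2) was 19.5-fold below LMPPs (-4.29, SE 0.22), which was the lowest difference of all 19938 genes in that comparison. Control cells read 27.8-fold below LMPPs (-4.80, 1 array each), 4th from the lowest. Tcf1 cells read 0.51 above control cells (SE 0.22), about as much as the 0.47 between the Tcf1 replicates. This difference was 0.27 without Tcf1 replicate 2 and 0.75 without replicate 1.

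Egfl7, the secreted EGF-like protein, had a log2 signal of 8.37 and 8.35 in Tcf1 cells, 8.22 in control cells and 9.58 in LMPPs. The order was that of Adgrl4 with a smaller span. The Tcf1 mean was 2.33-fold below LMPPs (-1.22, SE 0.16), control cells were 2.56-fold below LMPPs (-1.36), and Tcf1 cells were 0.14 above control cells (SE 0.16). The Mir126a probe set, for the microRNA printed above, read 3.96 and 4.19 in Tcf1 cells, 4.22 in control cells and 4.09 in LMPPs. Its values lay within the lowest 1.17% of genes on every array, and neither the Tcf1 and LMPP difference (-0.01, SE 0.18, adjusted p = 0.994, limma) nor that between Tcf1 and control cells (-0.14, SE 0.18, adjusted p = 0.879, limma) passed the test. At that level the array gave no reading of whether the microRNA followed its host gene.

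Emcn, the sialomucin, had a log2 signal of 5.61 and 5.39 in Tcf1 cells, 5.39 in control cells and 6.31 in LMPPs. The LMPP array was again the highest, and the control array lay at the lower Tcf1 value. The Tcf1 mean was 1.75-fold below LMPPs (-0.81, SE 0.18), and control cells were 1.89-fold below LMPPs (-0.92). Emcn read at the 28.2 percentile of all genes even in LMPPs and between the 12.7 and 14.7 percentiles elsewhere, so its differences rest on low signal.

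Cd93, the lectin-type surface protein, had a log2 signal of 10.78 and 11.12 in Tcf1 cells, 11.69 in control cells and 12.01 in LMPPs. The arrays lay in a graded order, and all 4 were above the 93.4 percentile of genes. The Tcf1 mean of 10.95 ± 0.24 (SD, n = 2) was 2.09-fold below LMPPs (-1.06, SE 0.20) and 1.67-fold below control cells (-0.74, SE 0.20). Control cells and LMPPs differed by -0.32, about the gap of 0.34 between the Tcf1 replicates, so these neighbours in the order do not stand apart beyond that spread. With Tcf1 replicate 2 alone, the difference from LMPPs was -0.89 and no longer reached 2-fold.

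Counted at a minimum of 2-fold, 5 of the 6 genes were lower in Tcf1 cells than in LMPPs, with Emcn just short of it, where 1.11% of all genes were. Against control cells 2 of 6 were lower, Angpt1 and Nrp1, where 2.02% of all genes were. In control cells against LMPPs 2 of 6 were lower, Adgrl4 and Egfl7, where 2.36% of all genes were. The genes were picked with these values known, so nothing is read from the shares. None of the 6 was 2-fold higher in any comparison. Of all genes, 1.79% were 2-fold higher in Tcf1 cells than in LMPPs, which makes 2.9% in either direction. Likewise 1.79% were higher in Tcf1 cells than in control cells, 3.81% in either direction, and 3.17% were higher in control cells than in LMPPs, 5.53% in either direction. The balance over all genes depended on the Tcf1 replicate. Against LMPPs, 357 genes were 2-fold higher and 221 lower, but 450 and 187 without replicate 1 and 292 and 313 without replicate 2. Against control cells, 356 were higher and 403 lower, but 435 and 314 without replicate 1 and 306 and 542 without replicate 2. The median differences over the 6 were -1.98, -0.32 and -0.62 in the same order, beside 0.0047, 0.02 and -0.01 over all genes. The comparisons share arrays and are not independent of each other.

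**Figure D2:**
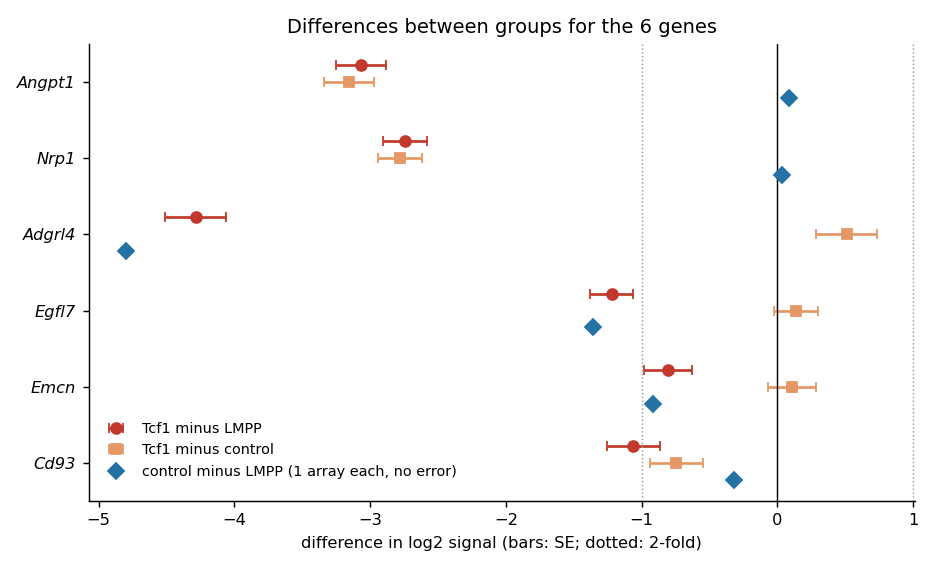
Differences in log2 signal (horizontal axis) for the 6 genes in Tcf1 cells minus LMPPs, Tcf1 cells minus control cells and control cells minus LMPPs, with the SE of the limma fit as bars for the first and second, no error for the last, and dotted lines at 2-fold. Angpt1 and Nrp1 sit near -3 in both Tcf1 comparisons and near 0 between control cells and LMPPs, whereas Adgrl4 sits at -4.29 and -4.80 against LMPPs.

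Likeness was measured as the Euclidean distance between the 4 log2 values of a gene and those of another, after each gene's own mean was taken off, so that 0 means the same pattern and size. The nearest of all genes to Angpt1 was Nrp1, and the nearest to Nrp1 was Angpt1, at a distance of 0.43. Outside the 6 genes, Scin (distance 0.50), an actin-severing protein, Mctp2 (0.90) and Itih5 (0.97) came next to Angpt1. Mctp2 (0.58), Lax1 (0.62), an adaptor that dampens antigen receptor signalling, and Scin (0.74) came next to Nrp1. Scin had a log2 signal of 7.45 and 8.40 in Tcf1 cells, 10.94 in control cells and 10.78 in LMPPs, and so had the same order with a wider gap between the Tcf1 replicates.

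Gem (0.50), a small GTPase, Ngp (0.81), a neutrophil granule protein, and Kmo (1.20), an enzyme of tryptophan breakdown, were nearest to Adgrl4. Gem had a log2 signal of 7.16 and 7.71 in Tcf1 cells, 6.93 in control cells and 11.14 in LMPPs. Egfl7 and Emcn were closest to each other among the 6 genes (0.40), but 106 other genes were nearer to Egfl7 and 604 nearer to Emcn than that. The nearest to Egfl7 were Chac1 (0.06), a glutathione-degrading enzyme, Gstm5 (0.09) and Msrb3 (0.11). Those nearest to Emcn were Trip13 (0.07), a mitotic checkpoint ATPase, Tjp1 (0.11), a tight junction protein, and Mthfd1l (0.11), an enzyme of folate metabolism. Lrba (0.08), Rhoq (0.10) and Arhgap6 (0.11) were nearest to Cd93, and 3669 genes outside the 6 were nearer to Cd93 than Emcn, the closest of the 6 (0.80). Patterns of small span have many near genes for that reason alone, and with 4 arrays the distances are a description.

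**Figure D3:**
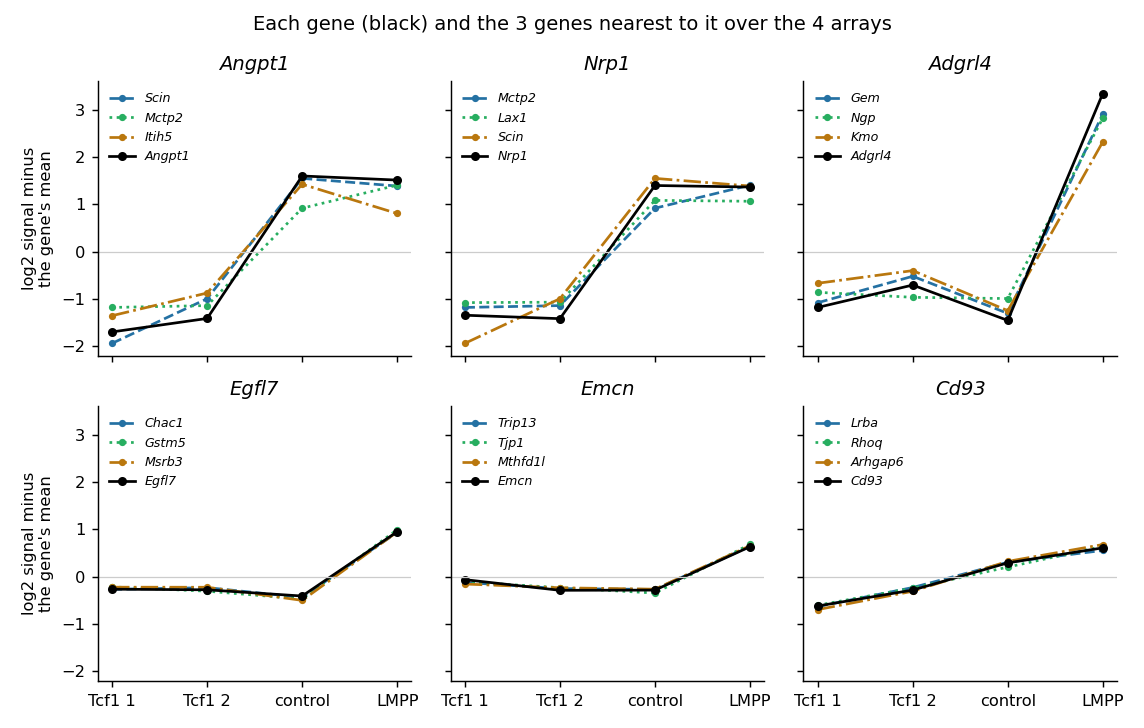
Log2 signal minus the gene's mean over the 4 arrays (vertical axis) on each array (horizontal axis) for the 6 genes in black and the 3 genes nearest to each in colour. Angpt1 and Nrp1 step up between the Tcf1 arrays and the others, Adgrl4 and its neighbour Gem rise on the LMPP array, and Cd93 is graded with a small span.

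The calls that follow hold for the fit over named genes, and none was made when all 35399 probe sets were fitted together (smallest adjusted p = 0.137 against LMPPs and 0.127 against control cells, limma, with 3317 and 3702 probe sets at an unadjusted p under 0.05). All lists were chosen with earlier results of these arrays known, so their counts beside the shares of all genes are a description. The partners and relatives of Angpt1 did not pass the test. Of 9 measured other angiopoietins, Tie receptors, angiopoietin-like proteins and the phosphatase Ptprb, 0 passed between Tcf1 cells and LMPPs (limma, adjusted p under 0.05), where 3.06% of all genes did, and 0 had an unadjusted p under 0.05. Between Tcf1 cells and control cells 0 passed as well, where 4.38% of all genes did, and 1 was lower at an unadjusted p under 0.05. The medians were 0.06 and 0.04. Tek, the receptor for angiopoietin 1, had a log2 signal of 5.61 and 5.66 in Tcf1 cells, 5.59 in control cells and 5.76 in LMPPs. Tie1, its relative, read 7.04 and 6.82 in Tcf1 cells, 6.75 in control cells and 7.02 in LMPPs. Angpt2, the other main ligand of Tek, read 5.69 and 5.89 in Tcf1 cells, 5.75 in control cells and 5.70 in LMPPs. These 3 genes stayed below the median gene on all 4 arrays and showed no high and low group of arrays as Angpt1 did.

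Nrp2, the other neuropilin, moved in the opposite direction to the values of Nrp1. It had a log2 signal of 7.69 and 8.09 in Tcf1 cells, 6.22 in control cells and 6.33 in LMPPs, and rose in Tcf1 cells against LMPPs (1.56, SE 0.21, adjusted p = 0.0115, limma) and was higher than in control cells (1.67, SE 0.21, adjusted p = 0.00709, limma). Both Tcf1 arrays lay above both other arrays. Of 22 measured genes of the neuropilin, VEGF and semaphorin list, 3 rose and 0 fell against LMPPs, where 1.75% of all genes rose and 1.31% fell. At an unadjusted p under 0.05 in limma, 4 were higher and 0 lower, and the list median was 0.07. The 3 that rose at an adjusted p under 0.05 were Nrp2, Vegfa (1.28, SE 0.17) and Pgf (0.98, SE 0.16), the placental growth factor. Vegfa, the ligand that Nrp1 and Kdr share, had a log2 signal of 11.05 and 11.26 in Tcf1 cells, against 9.88 in LMPPs. Pgf signal was 7.15 and 7.25 in Tcf1 cells, against 6.22 in LMPPs. Against control cells 2 were higher, Nrp2 and Pgf (1.31, SE 0.16), where 1.9% of all genes were. None was lower, where 2.49% of all genes were, and 1 was lower at an unadjusted p under 0.05 in limma. The list median was 0.05. Vegfa differed there by 0.58 and did not pass (adjusted p = 0.162, limma). Kdr, the VEGF receptor that pairs with Nrp1, differed by -0.09 from LMPPs and by -0.23 from control cells without passing.

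None of the relatives of Adgrl4 fell with it against LMPPs. Of 27 other adhesion G protein-coupled receptors, 2 rose and 0 fell in Tcf1 cells against LMPPs, where 1.75% and 1.31% of all genes did, with a list median of 0.06. At an unadjusted p under 0.05 in limma, 6 were higher and 3 lower. Against control cells 3 were higher and 1 lower, where 1.9% and 2.49% of all genes were, with a median of 0.05, and 3 were higher and 3 lower at an unadjusted p under 0.05. The 2 that rose against LMPPs at an adjusted p under 0.05 were Adgre1, a macrophage receptor (4.37, SE 0.19), and Adgrd1 (0.94, SE 0.17). Against control cells Adgre1 (4.76, SE 0.19), Adgrg7 (2.43, SE 0.16) and Adgrg6 (2.06, SE 0.28) were higher, and Adgre5, a leukocyte receptor also named CD97, was lower (-2.23, SE 0.25). Adgrl2, a latrophilin and the neighbour of Adgrl4 on the chromosome, had a log2 signal of 6.79 and 6.85 in Tcf1 cells, 6.77 in control cells and 7.52 in LMPPs. It had the same order of groups as Adgrl4 with a small span, and did not pass against LMPPs (-0.70, SE 0.16, adjusted p = 0.0845, limma). It did pass in 3 of the 5 fits run over genes, those with renewed quantile normalization, with median centring and with a filter on dim genes.

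Of 10 relatives and partners of Egfl7, Emcn and Cd93, 1 rose against LMPPs and 1 was higher than in control cells, with 0 lower in both, and the medians were 0.03 and -0.05. Of all genes, 1.75% rose and 1.31% fell against LMPPs, and 1.9% were higher and 2.49% lower than in control cells. At an unadjusted p under 0.05 in limma, 2 were higher and 1 lower against LMPPs, and 1 was higher and 2 lower against control cells. Podxl, a sialomucin of the CD34 family, rose against LMPPs (1.53, SE 0.22, adjusted p = 0.016, limma), with a log2 signal of 8.96 and 9.42 in Tcf1 cells and 7.66 in LMPPs. Cd34, the sialomucin that marks stem and progenitor cells, was higher than in control cells (3.90, SE 0.16, adjusted p = 1.7e-04, limma), with 12.76 and 12.86 in Tcf1 cells and 8.91 in control cells, and differed by 0.14 from LMPPs. Emcn and these sialomucins thus had 3 different orders of the groups. Thbd, a lectin-domain relative of Cd93 and its neighbour on the chromosome, read 6.52 and 7.03 in Tcf1 cells, 7.62 in control cells and 7.55 in LMPPs. It did not pass against LMPPs (-0.78, adjusted p = 0.17, limma) or control cells (-0.85, adjusted p = 0.122, limma). In 2 of the 5 fits run over genes, those with median centring and with a filter on dim genes, Thbd passed in both comparisons. Mmrn2, a partner of Cd93 in endothelium, and Clec14a, another lectin-domain relative of Cd93, stayed at or below 5.86 on all arrays.

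**Figure D4:**
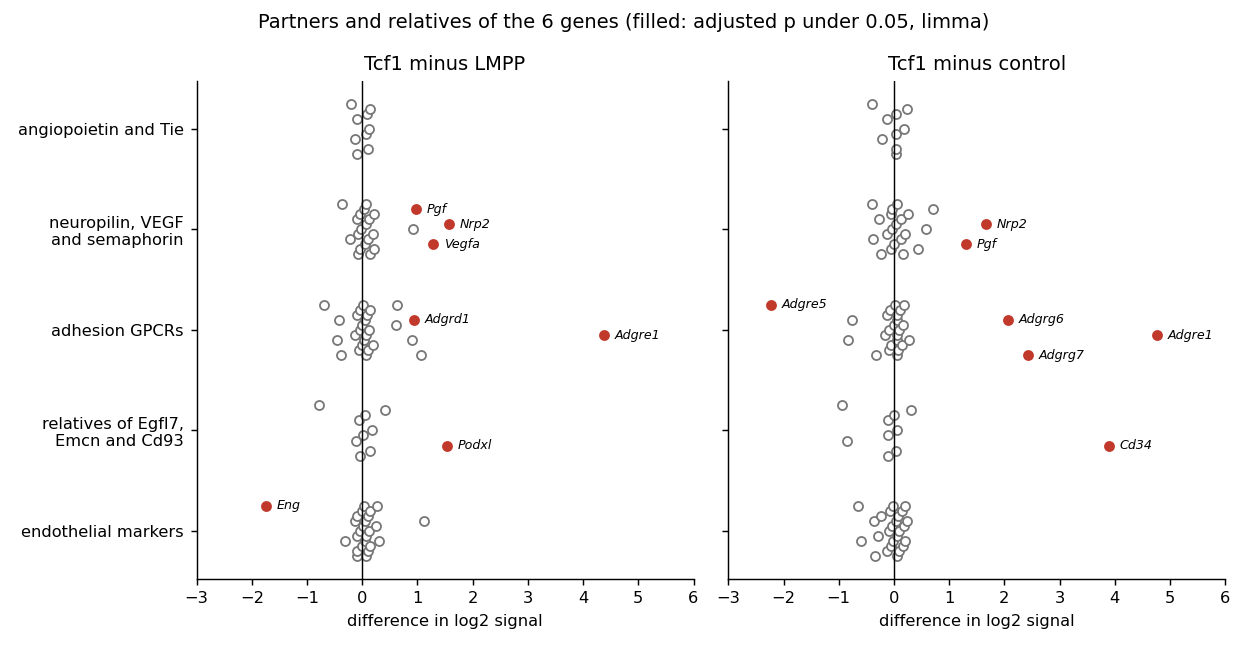
Differences in log2 signal (horizontal axis) of the genes of 5 lists around the 6 genes, in Tcf1 cells minus LMPPs on the left and Tcf1 cells minus control cells on the right. Each point is a gene, and named filled points passed the limma test at an adjusted p under 0.05. Most points lie near 0, and no angiopoietin or Tie gene is filled. Adgre1, Nrp2 and Pgf lie to the right in both panels, with Adgre1 furthest (4.37 and 4.76).

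The name endothelial-like, under which the 6 genes were grouped, was checked against 25 endothelial markers. Of these, 20 lay below the median gene on all 4 arrays, among them Cdh5, Cldn5, Vwf, Tek, Tie1, Kdr and Plvap, which define endothelial cells. The share of all genes that did so was not counted. The others were Pecam1, Eng, Icam2, Mcam and S1pr1. Pecam1 had a log2 signal of 10.41 and 10.47 in Tcf1 cells, 11.04 in control cells and 10.42 in LMPPs, the highest of the list on each array. The summed linear signal of the list, of which Pecam1 was the largest part on every array, was 4641 and 4768 in Tcf1 cells. It was 5700 in control cells and 5151 in LMPPs. Between Tcf1 cells and LMPPs 1 fell and 0 rose, where 1.31% and 1.75% of all genes did, with 1 lower and 1 higher at an unadjusted p under 0.05 in limma. Between Tcf1 cells and control cells 0 passed, where 4.38% of all genes did, with 2 lower and 0 higher at an unadjusted p under 0.05 in limma. The gene that fell was Eng, the co-receptor endoglin (-1.75, SE 0.17, adjusted p = 0.00338, limma), with a log2 signal of 7.96 and 8.15 in Tcf1 cells, 8.33 in control cells and 9.80 in LMPPs. Eng was highest in LMPPs and lower in both kinds of day 10 cells, as Adgrl4 and Egfl7 were. Its Tcf1 arrays lay below the control array, but that difference did not pass (-0.28, SE 0.17, adjusted p = 0.61, limma). The low signal of Cdh5, Cldn5, Vwf and the others named with them thus went against the name, while the high signal of Pecam1 did not. The genes are called by their own names here.

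Among 19 stem and progenitor genes, 3 rose and 4 fell in Tcf1 cells against LMPPs, where 1.75% and 1.31% of all genes did, with a median of -0.10. In Tcf1 cells 5 were higher and 0 lower than in control cells, where 1.9% and 2.49% of all genes were, with a median of 0.06 and 2 lower at an unadjusted p under 0.05 in limma. Lmo2 (-2.10), a transcriptional regulator of stem cells, Hlf (-1.58), a stem cell transcription factor, and Gata2 (-1.08), a zinc finger factor, fell most against LMPPs, while Slamf1 (2.25), Kit (1.54) and Ctla2a (1.48) rose. Against control cells Flt3 (4.24), Cd34 (3.90) and Hoxa9 (3.49), a homeobox factor of stem cells, had the largest positive differences. Hlf had a log2 signal of 6.79 and 6.72 in Tcf1 cells, 6.49 in control cells and 8.33 in LMPPs, the order of Adgrl4. No gene of this list had the order of Angpt1 and Nrp1 at 2-fold in both Tcf1 comparisons.

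Markers of other cell types, in lists also chosen with earlier results known, moved as well. Of 13 macrophage markers, 5 rose in Tcf1 cells against LMPPs and 7 were higher than in control cells, with 0 lower also at an unadjusted p under 0.05 in limma, and medians of 0.83 and 1.60. Adgre1 (4.37), Lyz2 (2.14), a lysozyme, and Cybb (1.45), a subunit of the phagocyte oxidase, led the rise against LMPPs. Adgre1 (4.76), Cybb (4.39) and Lyz2 (4.09) led against control cells. Of all genes, 1.75% rose against LMPPs and 1.9% were higher than in control cells, and 1.31% and 2.49% were lower, which also stands beside the counts of the lists that follow. Their summed linear signal was 9756 and 12471 in Tcf1 cells, 1711 in control cells and 4183 in LMPPs, and Fcgr1, Mertk, C1qa, Marco and Cd163 stayed below the median gene on all arrays. Of 14 stromal markers, Bgn rose against LMPPs (2.25), and against control cells Bgn was higher (1.52) and Pdgfrb lower (-1.63). The stromal sum was 2217 and 2653 in Tcf1 cells, 2541 in control cells and 1990 in LMPPs, and Dcn, Lum, Pdgfra, Cxcl12, Vcam1, Lepr and Postn stayed below the median gene on all arrays. Of 6 measured megakaryocyte markers, Itgb3 rose against LMPPs (1.14) and was lower than in control cells (-1.17). The megakaryocyte sum was 1410 and 1567 in Tcf1 cells, 2431 in control cells and 1004 in LMPPs, and Gp5, Pf4 and Ppbp, markers of megakaryocytes and platelets, stayed below the median gene on all arrays. Of 7 T lineage markers, 5 rose and 0 fell against LMPPs, with a median of 2.08. Il2ra (6.07), Thy1 (4.33) and Gata3 (2.54), a T cell transcription factor, rose most. Cd3e, a chain of the T cell receptor complex, differed by 0.11 and Ptcra, the pre-T cell receptor chain, by 0.07 without passing (adjusted p = 0.90 and 0.94, limma). Against control cells 3 were lower and 0 higher, with a median of -0.78 and all 7 lower at an unadjusted p under 0.05. The 3 that passed at an adjusted p under 0.05 were Cd3g (-6.44), another chain of that complex, Cd3e (-2.98) and Gata3 (-1.30). Cd3e had a log2 signal of 7.45 and 7.42 in Tcf1 cells, 10.41 in control cells and 7.32 in LMPPs. It was thus low in Tcf1 cells beside control cells, as Angpt1 and Nrp1 were, but low in LMPPs too, where those 2 genes were high. The part of these cells and markers in the values of the 6 genes was not tested.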

How the data were processed

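RNA of 4 samples was amplified and labelled for Affymetrix whole-transcript arrays, per the labels' protocols. The deposited table gives the authors' log2 signal for each probe set, made with RMA and Partek 6.5, per the submitters' processing notes. Base 2 is inferred from RMA and the range of 3.44 to 14.45, since the notes name no base. No source used here names the array's genome build. The platform annotation gave 1 gene symbol to 21789 of the 35399 probe sets, several to 1621 and none to 11989. Each of the 19938 genes was read from its brightest probe set by mean signal, with no filter on dim genes. Neither scanner files nor detection calls were used, and the number of arrays limits the precision.

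Group means were fitted to all genes with limma 3.58.1 (R 4.3.3) and eBayes, p-values were adjusted by Benjamini-Hochberg across the 19938 genes, and an adjusted p under 0.05 counted as passing. Only the Tcf1 pair gave a spread (1 residual degree of freedom, 6.78 in total with the prior), and p-values measure that spread alone. The code was tested on simulated data. Control cells against LMPPs, 1 array each, had no test. The 6 genes and all lists were chosen with earlier results of these data known. From each list up to 3 of the largest differences that passed, in each direction and comparison, are named, with genes needed to say what a list holds. Likeness names the 3 nearest genes without predicted or clone names. Alternatives were renewed quantile normalization, median centring, averaged probe sets, a filter on dim genes, all probe sets, and either Tcf1 replicate left out.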

Additional observations from a re-analysis of the deposited data

How the results depend on the processing

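The count of members at least 2-fold lower in Tcf1 cells than in LMPPs was 5, or 4 after renewed quantile normalization and 4 to 5 with a Tcf1 replicate left out (4 without replicate 1). Cd93 was the gene that left it. The counts against control cells (2) and for control cells against LMPPs (2) were the same under each alternative run. No member difference of at least 2-fold changed sign. Angpt1 ranged from -3.21 to -2.93 and Adgrl4 from -4.52 to -4.05 against LMPPs. The small difference of Emcn between Tcf1 and control cells (0.11) ranged from -0.0043 to 0.22, and the dim-gene filter removed Emcn. Genes called against LMPPs were 610 (57.2% higher), but 1456 after median centring (41.7% higher), 1196 above the 25th percentile and 0 (limma) when the 35399 probe sets were fitted without names, with 3317 of them at an unadjusted p under 0.05. Against control cells they were 874, but 1646, 1437 and 0 (3702 unadjusted). The cause was not tested. All 25 and 23 calls among the 145 listed genes held in the other gene-level fits, where 12 and 11 more genes passed in some, but none was made over all probe sets. The tests had no residual degree of freedom without a Tcf1 replicate, so no call was made there. No paired analysis was possible because only the Tcf1 group has more than 1 array.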

Other observations

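The measured protein-coding genes next to the 6 genes on either side in RefSeq were read as well, a choice made after the values of the 6 were seen. Of these 12 neighbours, 1 fell and 0 rose between Tcf1 cells and LMPPs, where 3.06% of all genes passed, with a median of -0.08, and 1 was lower and 0 higher than in control cells, where 4.38% passed, with a median of -0.02. Agpat2, an enzyme of phospholipid synthesis beside Egfl7, had a log2 signal of 9.53 and 9.73 in Tcf1 cells, 10.25 in control cells and 10.76 in LMPPs, and fell against LMPPs (-1.13, adjusted p = 0.0204, limma). Notch1, the receptor gene on the other side of Egfl7, had a log2 signal of 10.28 and 10.60 in Tcf1 cells, 12.63 in control cells and 10.14 in LMPPs, and was lower in Tcf1 cells than in control cells (-2.18, adjusted p = 0.00187, limma). Egfl7 and Agpat2 were both highest in LMPPs, and Notch1 was highest in control cells. Between Tcf1 and control cells Egfl7 differed by 0.14 (SE 0.16), and Agpat2 by -0.62 without passing (adjusted p = 0.131, limma).

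The neighbours of Angpt1 and Nrp1 did not pass in either comparison. Abra and Rspo2, beside Angpt1, differed between Tcf1 cells and LMPPs by -0.22 and 0.19, and Pard3 and Itgb1, beside Nrp1, by 0.07 and 0.06. Itgb1, the integrin beta chain, had a log2 signal of 10.06 and 10.10 in Tcf1 cells, 9.88 in control cells and 10.02 in LMPPs.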
